A study of Mus musculus with 18 samples.

Results

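Genes of the antiviral interferon response were examined in the uterus and ovary of mice that differ at the AU-rich element of Ifng, the gene of interferon gamma. The set holds 33 genes chosen by name, among them Isg15, the IFIT, MX and OAS families, the RIG-I-like sensors, Bst2, Rsad2 and Samhd1. All 33 were matched to 1 gene ID each, of 57010 IDs listed, and all 33 passed the filter on low counts in every comparison. The study sequenced total RNA from 18 libraries of C57B6/J mice aged 20 to 25 weeks, with 3 libraries for each genotype, WT, ARE+/- and ARE-/-, in each tissue. As background, ARE stands for the AU-rich element, a stretch of the Ifng transcript that promotes its decay, which the labels do not spell out. WT animals serve as controls, ARE+/- animals carry the altered allele on 1 chromosome and ARE-/- animals carry no normal copy. The labels name no treatment, transgene or Cre line, and the sources used here give no estrous stage.

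Cells that detect viral RNA or DNA make type I interferons, secreted proteins that bind the receptor of Ifnar1 and Ifnar2 on neighbouring cells. That receptor signals through a complex that contains Stat2 and Irf9 and binds the interferon-stimulated response element (ISRE) in the promoters of antiviral genes. Interferon gamma binds a different receptor and acts through the gamma-activated site (GAS) in promoters, and it induces many antiviral genes as well, in part through the transcription factor Irf1. In the female reproductive tract the type I interferon Ifne is made without infection, and interferon gamma from uterine natural killer cells is known for its part in remodelling vessels in early pregnancy.

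Uterus libraries held 33185496 to 49720354 counts, and ovary libraries 38132822 to 46647171. Levels are CPM, meaning counts divided by the size of the library after correction for its composition. Fold changes are log2 values with their standard error (SE). A gene was called when its p-value from edgeR's quasi-likelihood test, adjusted by Benjamini-Hochberg over all genes tested, was under 0.05. Of 11 ovary markers 11 were higher in WT ovary than in WT uterus, and of 10 uterus markers 10 were lower. Uterus ARE-/- library 1 stood apart, with summed CPM of 7 adipocyte markers at 16400 and of 5 erythroid markers at 7260. It had the highest level of 27.0% of the genes tested in the uterus. The titles mark uterus WT library 1 and ovary ARE-/- library 6 as backup samples.

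Most of the antiviral genes rose in the ARE-/- ovary, and fewer passed the test in the uterus. In the ARE-/- ovary 24 of the 33 were called higher, against 6.31% of all genes tested, and none lower, against 4.15%. There the median log2 fold change was 1.31, against 0.02 for all genes. The 24 included all 4 IFIT genes, all 3 ISG15 conjugation genes and all 3 genes of the Parp9, Parp14 and Dtx3l group. In the ARE+/- ovary 9 were called higher, against 1.35% of all genes, and none lower, against 0.356%, with a median of 0.82 against 0.02. The ARE-/- count was 15 to 27 when any 1 ovary library was left out, lowest without WT library 1, where 2.05% of all genes were called higher. The ARE+/- count was 0 without WT library 1 (0.285% of all genes), 1 without WT library 3 (0.316%) or ARE+/- library 1 (0.34%), 2 without ARE+/- library 4 (0.395%), 5 without ARE-/- library 2 (0.794%) and 16 without ARE-/- library 6 (2.14%). The share of all genes called moved in the same direction as the members' count in each of these. DESeq2, run as an alternative, called 27 members higher in the ARE-/- ovary, against 9.6% of all genes, and 19 in the ARE+/- ovary, against 4.05%. The summed level of the 11 ovary markers was 3630 to 5700 CPM in the WT ovary, 2690 to 2930 in ARE+/- and 1080 to 3200 in ARE-/-, so every mutant ovary was below every WT ovary, and 0 of the 11 were called in either comparison. The part of this shift in the members' levels was not tested. Fewer or more cells of a type and less or more RNA per cell cannot be told apart in these tissue samples.

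In the uterus 6 of the 33 were called higher in ARE-/- against WT, namely Samhd1, Rtp4, Ifit3, Ifih1, Herc6 and Parp9, against 3.36% of all genes tested. The median log2 fold change over the 33 was 1.15 against 0.04 for all genes. Of the 33, 27 had an unadjusted p under 0.05, as did 4819 of the 24277 genes tested. In ARE+/- against WT 3 were called higher, Samhd1, Rtp4 and Ifit3, against 1.08% of all genes, and the median was 1.38 against 0.01. No member was called lower in the uterus, where 0.391% of all genes were called lower in ARE-/- and 0.0535% in ARE+/-. The uterus libraries varied more than the ovary libraries, with a common biological coefficient of variation of 0.411 against 0.281. DESeq2 called 20 members higher in the ARE-/- uterus, against 7.41% of all genes, and 22 in the ARE+/- uterus, against 4.39%. Leaving out 1 library at a time moved the ARE-/- uterus count between 1 (without WT library 1 or 3, with 0.784% and 0.751% of all genes called higher) and 13 (without ARE+/- library 3, 2.76%). It was 3 without ARE+/- library 2 (2.06%) or ARE-/- library 3 (2.52%), and 10 without the ARE-/- library that stood apart (3.86%). The ARE+/- uterus count was 0 without WT library 1 or 3, where 4 and 0 genes of the whole table were called higher. It was 5 without ARE-/- library 3 (1.56% of all genes), 8 without WT library 2 (1.4%) and 9 without ARE-/- library 1 (2.43%). Markers of other cell types moved with the genotype in the uterus. The adipocyte sum was 40 to 57.2 CPM in WT, 289 to 505 in ARE+/- and 955 to 16400 in ARE-/-, with 7 of 7 markers called higher in ARE-/- and 0 in ARE+/-. The erythroid sum was 95.9 to 220 CPM in WT, 119 to 223 in ARE+/- and 837 to 7260 in ARE-/-, with 5 of 5 called higher in ARE-/- and 0 in ARE+/-. The sum of the 10 uterus markers was 5550 to 6070 CPM in WT, 3040 to 4060 in ARE+/- and 2880 to 8130 in ARE-/-. Every ARE+/- uterus was thus below every WT uterus, with ARE+/- library 3 at 3040, and 0 of the 10 were called in either comparison. The part of these marker shifts in the uterus members' levels was not tested.

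**Figure D1:**
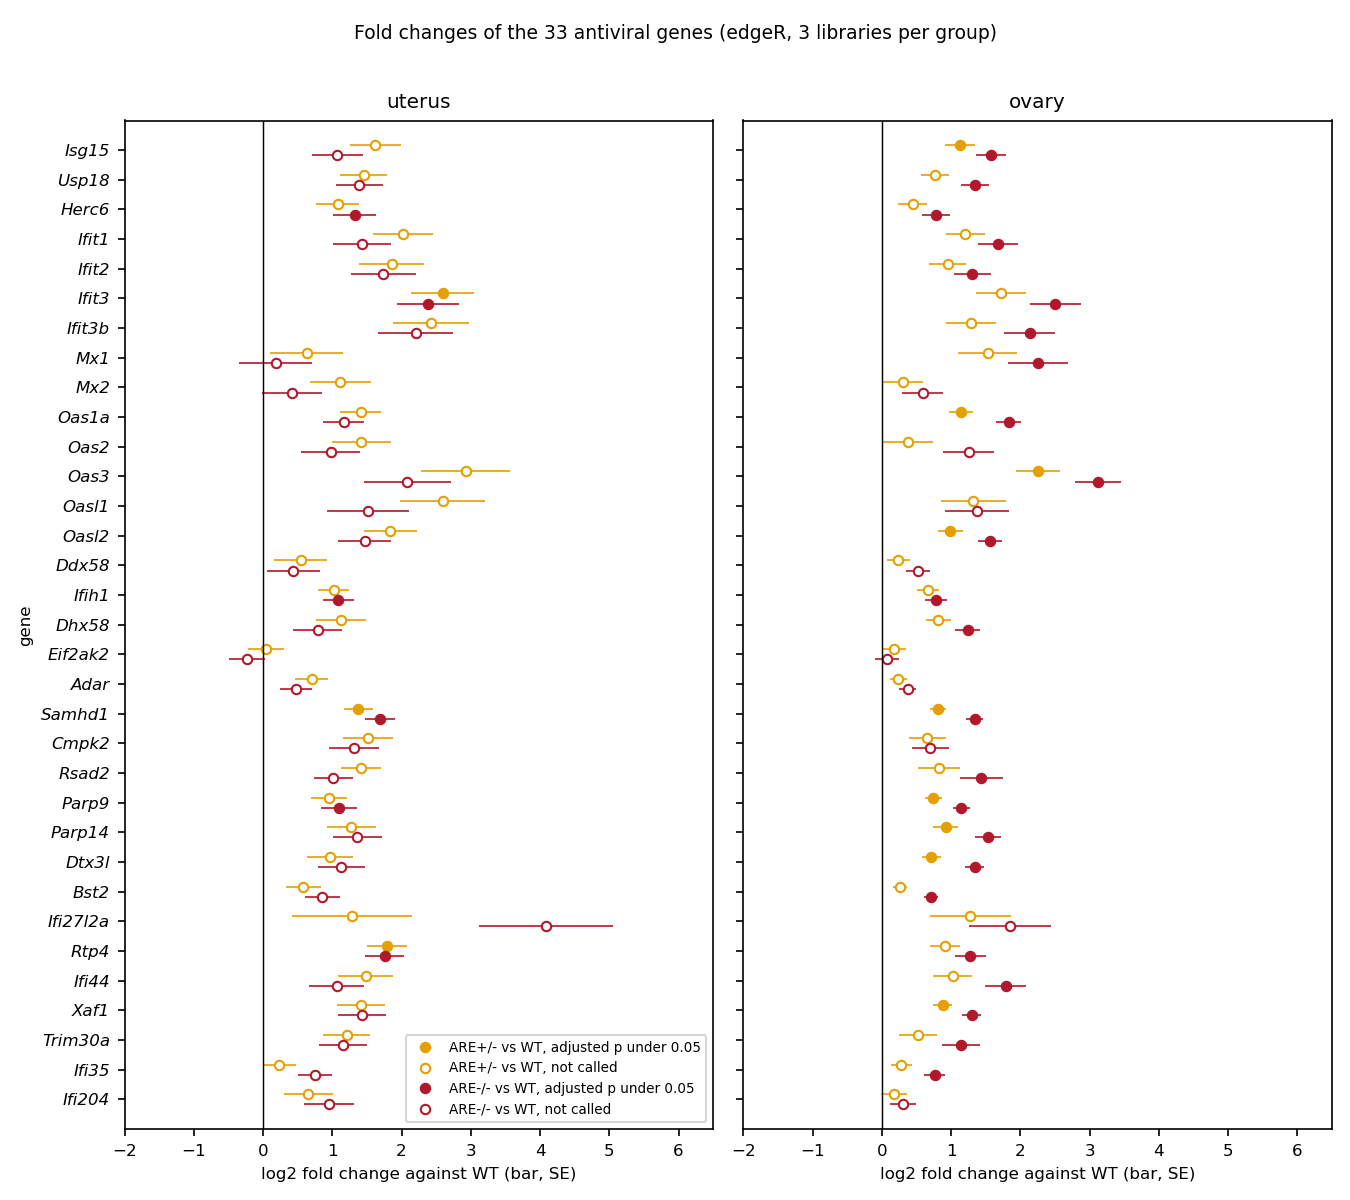
Log2 fold change against WT (x axis, bar 1 SE) of the 33 antiviral genes in the uterus and the ovary, 3 libraries per group, with filled points for genes called at an adjusted p under 0.05. Nearly all points lie above 0 in both tissues, the ovary bars are shorter, and 24 of the 33 ARE-/- points are filled in the ovary against 6 in the uterus.

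Stretches of the promoters are shown for members with an ISRE, because the list was chosen by name and this motif is a feature that many of its promoters share. RefSeq promoters (GRCm38.p6, 250 bases before to 50 after a start) were at hand for 23 of the 33. The ISRE core searched was GAAA, any 2 bases (NN) and GAAA again, on both strands, with overlapping matches kept. It was found in 12 of 23 members (52.2%), against 3.99% of 27025 genes in the table. The 7 stretches below are written 5′ to 3′ on the strand of the gene, with matches to the core in capitals. A core on the opposite strand reads as TTTC, NN and TTTC.
Isg15 (chr4:156200865-156200906, minus strand): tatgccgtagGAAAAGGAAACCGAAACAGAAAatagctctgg
Ifit1 (chr19:34640775-34640823, plus strand): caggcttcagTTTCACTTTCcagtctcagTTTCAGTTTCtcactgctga
Ifit3 (chr19:34583363-34583426, plus strand): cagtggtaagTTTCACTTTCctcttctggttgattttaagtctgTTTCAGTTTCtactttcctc
Ifit3b (chr19:34607759-34607822, plus strand): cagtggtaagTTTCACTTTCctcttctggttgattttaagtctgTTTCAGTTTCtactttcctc
Oas3 (chr5:120777715-120777744, minus strand): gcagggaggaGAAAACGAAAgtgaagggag
Bst2 (chr8:71537577-71537612, minus strand): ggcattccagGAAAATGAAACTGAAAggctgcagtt
Rsad2 (chr12:26456553-26456582, minus strand): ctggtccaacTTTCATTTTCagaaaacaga

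Isg15 held 3 overlapping cores, the first 78 and the last 66 bases before the start. Ifit3 and Ifit3b carried the same stretch with 2 cores. Laid side by side at the best offset, 32 bases, their windows were identical at 201 of 268 bases (75.0%). No gaps were allowed, so inserted or lost bases would lower this share. The GAS core TTCNNNGAA, which is its own reverse complement, was found in 7 of 23 members (30.4%) against 9.55% of all genes. Of 19 genes on a comparison list of the interferon gamma response, 10 (52.6%) held the ISRE core and 6 (31.6%) the GAS core. Of 45 other interferon-stimulated genes 25 (55.6%) held the ISRE core and 3 (6.67%) the GAS core. A match to these letters is a description of the window. The 7 stretches shown are all of members called in the ARE-/- ovary. Ifih1, Oas1a and Trim30a held a core too and are not shown. A core was also found 2 bases past the start of Ddx58 and 18 bases past that of Eif2ak2. The levels of these 2 genes did not pass the test in any comparison.

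Isg15, Usp18 and Herc6 form the ISG15 conjugation group. Isg15 is a ubiquitin-like protein that is joined to other proteins, Usp18 removes it and restrains the type I receptor, and Herc6 is the ligase that attaches it in mice. In the ovary Isg15 stood at 6.64, 6.57 and 4.26 CPM in WT, 12.7, 11.1 and 14.4 in ARE+/- and 18.6, 19.5 and 13.9 in ARE-/-. Both mutant groups lay wholly above WT, and the ARE-/- and ARE+/- ranges overlapped. The log2 fold change was 1.57 (SE 0.21, edgeR adjusted p = 0.00263) in ARE-/- and 1.13 (SE 0.21, edgeR adjusted p = 0.0355) in ARE+/-. In the uterus Isg15 measured 7.72, 12.5 and 4.88 CPM in WT, 19.6, 20.8 and 37 in ARE+/- and 21.3, 14.8 and 16.6 in ARE-/-. Here too no mutant library fell into the WT range, but WT itself spread widely and neither comparison passed, at 1.07 (SE 0.37, edgeR adjusted p = 0.148) for ARE-/- and 1.62 (SE 0.37, edgeR adjusted p = 0.0782) for ARE+/-.

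Usp18 in the ovary was measured at 8.12, 10.5 and 8.98 CPM in WT, 15.3, 14.3 and 17.4 in ARE+/- and 21.6, 30.6 and 17.8 in ARE-/-. It rose in ARE-/- by 1.34 (SE 0.20, edgeR adjusted p = 0.004), while ARE+/- gave 0.76 (SE 0.20, edgeR adjusted p = 0.0938). Uterus levels of Usp18 were 9.89, 10.9 and 7.12 CPM in WT, 17.6, 18.8 and 40.04 in ARE+/- and 23.7, 19.8 and 29.7 in ARE-/-. All mutant uteri exceeded all WT uteri, and the ARE-/- value of 1.39 (SE 0.34, edgeR adjusted p = 0.0552) just missed the threshold. Herc6 was called in both tissues in ARE-/-, with 1.33 (SE 0.31, edgeR adjusted p = 0.0484) in the uterus and 0.78 (SE 0.20, edgeR adjusted p = 0.0381) in the ovary. These calls were lost under 9 of 14 alternatives in the uterus and 8 of 14 in the ovary. Other genes overlap Usp18 and Herc6, so any reads of shared parts were counted for each.

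The IFIT proteins bind foreign RNA and block its translation. Ifit3 had the largest log2 fold change of the called uterus members. It was measured in the uterus at 7.56, 11.1 and 7.81 CPM in WT, 29, 35.3 and 95.6 in ARE+/- and 49, 31.8 and 57.2 in ARE-/-. WT libraries were tightly grouped, all mutant libraries were higher, and ARE+/- library 3 exceeded every ARE-/- library. The test gave 2.38 (SE 0.45, edgeR adjusted p = 0.0196) for ARE-/- and 2.59 (SE 0.45, edgeR adjusted p = 0.0307) for ARE+/-. In the ovary Ifit3 reached 36.8, 62 and 25.5 CPM in ARE-/- and 28.9, 20.6 and 22.7 in ARE+/-, from 6.77, 10.1 and 5.04 in WT. The ARE-/- rise was 2.50 (SE 0.37, edgeR adjusted p = 0.00565), and ARE+/- gave 1.72 (SE 0.36, edgeR adjusted p = 0.0569), just short of a call.

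Ifit1 in the ovary stood at 7.31, 10.8 and 6.04 CPM in WT, 18.1, 16.7 and 20.8 in ARE+/- and 25, 35.4 and 16.8 in ARE-/-, with a rise in ARE-/- of 1.68 (SE 0.29, edgeR adjusted p = 0.00802). Its uterus levels were 7.02, 16.5 and 7.05 CPM in WT, 25.7, 31 and 67.3 in ARE+/- and 25.8, 27.8 and 28.7 in ARE-/-. All mutant uteri were above WT, yet the ARE-/- value of 1.43 (SE 0.42, edgeR adjusted p = 0.0998) did not pass. Ifit2 and Ifit3b were called in the ARE-/- ovary, at 1.31 and 2.13, and not in the uterus, where they measured 1.74 and 2.21. Ifit3 and Ifit3b are near-identical copies, and reads that map to both were counted for each, so their values are not independent.

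Mx1 and Mx2 encode dynamin-like GTPases that trap viral nucleocapsids. Mx1 was singled out after its values were seen, since among the members its ARE-/- effect had the lowest unadjusted p for a difference between the tissues. In the ovary it was measured at 1.38, 2.11 and 1.75 CPM in WT, 5.17, 2.77 and 7.21 in ARE+/- and 9.6, 11.2 and 4.31 in ARE-/-. All mutant ovaries exceeded all WT ovaries, and the rise in ARE-/- was 2.26 (SE 0.43, edgeR adjusted p = 0.0115). In the uterus it was 11.9, 3.71 and 12.1 CPM in WT, 8.0, 9.81 and 25.1 in ARE+/- and 12.6, 7.28 and 11.6 in ARE-/-. These ranges overlapped, with WT library 2 the lowest of the 9, and the ARE-/- value was 0.18 (SE 0.53, edgeR adjusted p = 0.887), which turned to -0.20 without that library. The ARE-/- effect on Mx1 was larger in the ovary than in the uterus by 2.07 (SE 0.73), with an unadjusted p of 0.0119 and an edgeR adjusted p of 0.23. Many laboratory strains carry a defective Mx1 allele, so the level of the transcript says nothing here of the protein. Mx2 did not pass in either tissue, at 0.59 (SE 0.30, edgeR adjusted p = 0.244) in the ARE-/- ovary.

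The OAS proteins sense double-stranded RNA and make oligoadenylate, a signal that leads to the breakdown of RNA. Oasl1 and Oasl2 are related proteins that carry ubiquitin-like domains. Oas3 had the largest fold change of the 33 members in the ARE-/- ovary. It was measured there at 0.715, 0.967 and 1.1 CPM in WT, 4.02, 3.35 and 5.95 in ARE+/- and 8.02, 10.6 and 5.72 in ARE-/-. No mutant ovary came near the WT range, and the lowest ARE-/- library lay within the ARE+/- range. The rise was 3.12 (SE 0.33, edgeR adjusted p = 0.000656) in ARE-/- and 2.25 (SE 0.32, edgeR adjusted p = 0.0103) in ARE+/-. In the uterus Oas3 varied several-fold within a genotype, at 4.74, 3.18 and 4.9 CPM in WT, 17, 18.9 and 61.4 in ARE+/- and 7.13, 14.8 and 32.3 in ARE-/-. All mutant uteri were above WT, and neither the ARE-/- value of 2.08 (SE 0.63, edgeR adjusted p = 0.108) nor the ARE+/- value of 2.92 (SE 0.65, edgeR adjusted p = 0.0718) passed.

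Oas1a, another oligoadenylate synthetase, was called in the ovary and not in the uterus. The difference in the ARE-/- effect between the tissues (ovary minus uterus) did not pass for Oas1a, at 0.66 (edgeR adjusted p = 0.426), or for Oas3, at 1.03 (edgeR adjusted p = 0.576). In the ovary Oas1a stood at 6.92, 8.5 and 7.62 CPM in WT, 15.8, 15.9 and 19.1 in ARE+/- and 28.3, 32.9 and 20.7 in ARE-/-. The 3 groups did not overlap, with a rise of 1.83 (SE 0.18, edgeR adjusted p = 0.000455) in ARE-/- and 1.14 (SE 0.18, edgeR adjusted p = 0.017) in ARE+/-. Uterus values of Oas1a were 17.1, 18.5 and 17.7 CPM in WT, 31.5, 36.8 and 73.9 in ARE+/- and 35.6, 38.4 and 45.5 in ARE-/-. WT uteri agreed closely, all mutants were higher, and the ARE-/- value was 1.16 (SE 0.29, edgeR adjusted p = 0.0623). Oas1a belongs to a family of close copies, and reads that map to several copies were counted for each.

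Oasl2 was the most abundant of the OAS group. Its ovary levels were 38.9, 57.9 and 40.2 CPM in WT, 83, 100.1 and 88.9 in ARE+/- and 133, 160 and 112 in ARE-/-, again in 3 groups that did not overlap. It rose by 1.56 (SE 0.18, edgeR adjusted p = 0.00122) in ARE-/- and by 0.99 (SE 0.18, edgeR adjusted p = 0.0316) in ARE+/-. In the uterus it was 30.3, 62.4 and 34.2 CPM in WT, 107, 114 and 232 in ARE+/- and 83.5, 128 and 140 in ARE-/-, with ARE+/- library 3 the highest. Neither uterus comparison passed, at 1.47 (SE 0.38, edgeR adjusted p = 0.066) for ARE-/-. Oas2 and Oasl1 were not called in the ARE-/- ovary, at 1.25 (SE 0.36, edgeR adjusted p = 0.0643) and 1.38 (SE 0.47, edgeR adjusted p = 0.0945).

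**Figure D2:**
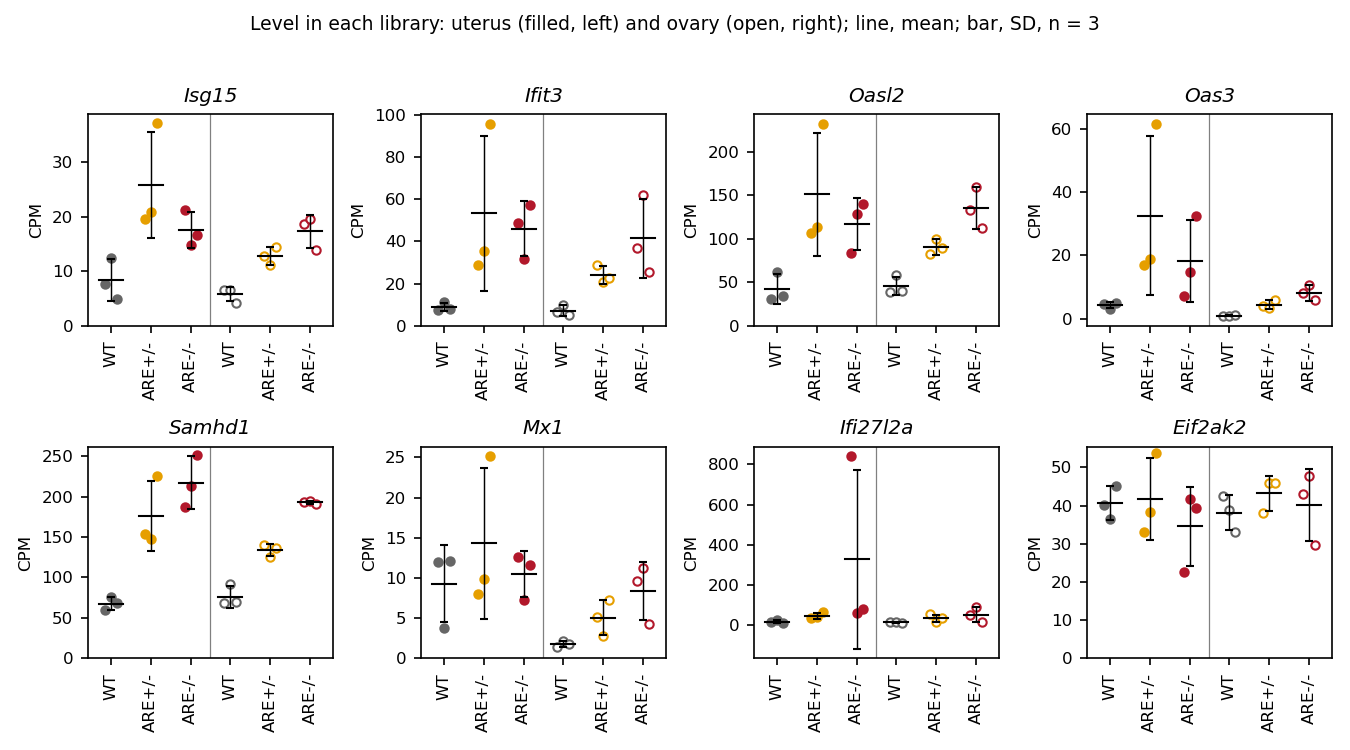
CPM in each library (points, uterus filled and ovary open) with mean and SD, n = 3, of 8 antiviral genes by genotype. Isg15, Ifit3, Oasl2, Oas3 and Samhd1 are higher in both mutant genotypes, Mx1 separates only in the ovary panel, Ifi27l2a holds 1 ARE-/- uterus library at 839 CPM, and Eif2ak2 overlaps between genotypes in both tissues.

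Ddx58 (RIG-I), Ifih1 (MDA5) and Dhx58 (LGP2) are helicases that recognise viral RNA in the cytoplasm. Dhx58 in the ovary was measured at 7.54, 8.53 and 6.64 CPM in WT, 11.9, 13 and 15.1 in ARE+/- and 19.5, 20.2 and 13.9 in ARE-/-. Both mutant groups lay above WT, and ARE-/- rose by 1.24 (SE 0.18, edgeR adjusted p = 0.00366). In the uterus Dhx58 measured 10.1, 13.2 and 8.81 CPM in WT, 14.1, 19 and 37 in ARE+/- and 14.9, 16.5 and 23.9 in ARE-/-, with 0.79 (SE 0.36, edgeR adjusted p = 0.258) for ARE-/-. An antisense gene overlaps Dhx58, and without a strand setting their reads cannot be told apart. Ifih1 was called in ARE-/- in both tissues, at 1.09 (SE 0.23, edgeR adjusted p = 0.03) in the uterus and 0.79 (SE 0.16, edgeR adjusted p = 0.0138) in the ovary. These calls were lost under 6 of 14 alternatives in the uterus and 2 of 14 in the ovary. Ddx58 was called in neither tissue, at 0.44 (SE 0.38, edgeR adjusted p = 0.573) and 0.52 (SE 0.17, edgeR adjusted p = 0.0847).

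Among the effectors that act on RNA and nucleotides, Samhd1, which depletes the deoxynucleotides a virus needs, changed most evenly. Uterus levels were 59.3, 75.8 and 68.1 CPM in WT, 154, 148 and 226 in ARE+/- and 188, 213 and 252 in ARE-/-. All mutant uteri held at least 148 CPM, and no WT uterus exceeded 75.8. It rose by 1.68 (SE 0.22, edgeR adjusted p = 0.00349) in ARE-/-, the 1 uterus call of the set that held under all 14 alternatives, and by 1.38 (SE 0.21, edgeR adjusted p = 0.0178) in ARE+/-. In the ovary it stood at 67.8, 92.1 and 69.2 CPM in WT, 139.6, 126 and 136 in ARE+/- and 193, 195 and 192 in ARE-/-. The 3 genotypes did not overlap and the ARE-/- libraries differed by only a few CPM. The ovary rises were 1.34 (SE 0.12, edgeR adjusted p = 0.00018) in ARE-/- and 0.81 (SE 0.12, edgeR adjusted p = 0.0108) in ARE+/-.

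Rsad2 (viperin) makes a nucleotide analogue that ends viral RNA chains, and Cmpk2, a nucleotide kinase, is its neighbour on chromosome 12. Rsad2 in the ovary was measured at 5.62, 9.29 and 5.26 CPM in WT, 16.4, 10.6 and 8.72 in ARE+/- and 16.3, 23.9 and 14.3 in ARE-/-. The lowest ARE+/- library fell within the WT range, all ARE-/- libraries lay above it, and ARE-/- rose by 1.43 (SE 0.31, edgeR adjusted p = 0.0199). In the uterus Rsad2 stood at 7.45, 9.4 and 7.31 CPM in WT, 14.8, 18.9 and 30.6 in ARE+/- and 13.5, 17.3 and 17.9 in ARE-/-. All mutant uteri exceeded WT, and the ARE-/- value of 1.01 (SE 0.28, edgeR adjusted p = 0.0849) did not pass. Cmpk2 did not pass in the ARE-/- ovary, at 0.70 (SE 0.27, edgeR adjusted p = 0.132).

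Eif2ak2 (PKR), the kinase that halts translation when it binds double-stranded RNA, was singled out after its values were seen because it stayed near WT. It was measured in the ovary at 42.5, 38.9 and 33.1 CPM in WT, 37.9, 46 and 45.9 in ARE+/- and 43, 47.8 and 29.5 in ARE-/-. In the uterus it was 40.2, 36.4 and 45.2 CPM in WT, 33.1, 38.4 and 53.8 in ARE+/- and 22.6, 41.6 and 39.4 in ARE-/-. The genotypes overlapped in both tissues, with 0.07 (SE 0.17, edgeR adjusted p = 0.836) in the ARE-/- ovary and -0.23 (SE 0.26, edgeR adjusted p = 0.672) in the ARE-/- uterus. Adar, which edits double-stranded RNA, was not called in the ARE-/- ovary either, at 0.37 (SE 0.12, edgeR adjusted p = 0.0772).

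Parp9 and Dtx3l form a complex of an ADP-ribosyltransferase and a ubiquitin ligase, and Parp14 is a related ADP-ribosyltransferase. Parp14 in the ovary was measured at 34, 41.9 and 33.2 CPM in WT, 71.2, 66.1 and 69.3 in ARE+/- and 108, 132 and 75 in ARE-/-. The 3 genotypes did not overlap, and Parp14 rose by 1.53 (SE 0.18, edgeR adjusted p = 0.00174) in ARE-/- and by 0.92 (SE 0.18, edgeR adjusted p = 0.0437) in ARE+/-. Parp9 stood in the ovary at 29, 33.5 and 24.6 CPM in WT, 47.1, 46.4 and 52 in ARE+/- and 63.3, 70.5 and 59 in ARE-/-. It rose by 1.15 (SE 0.12, edgeR adjusted p = 0.000712) in ARE-/- and by 0.74 (SE 0.12, edgeR adjusted p = 0.0213) in ARE+/-, and its groups did not overlap either. Dtx3l was measured at 24.6, 27.3 and 22.5 CPM in WT, 38.4, 38.7 and 45 in ARE+/- and 63.3, 73 and 51.8 in ARE-/-, with the groups again apart. Its rises were 1.34 (SE 0.14, edgeR adjusted p = 0.000524) in ARE-/- and 0.71 (SE 0.14, edgeR adjusted p = 0.0373) in ARE+/-. Parp9 and Dtx3l overlap on opposite strands of chromosome 16, so reads of the shared part were counted for both.

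In the uterus Parp9 was measured at 32.8, 43.8 and 34.6 CPM in WT, 56.5, 61.2 and 97.6 in ARE+/- and 58.4, 84.7 and 94.4 in ARE-/-, and it was called in ARE-/- at 1.09 (SE 0.26, edgeR adjusted p = 0.0497). That call was lost under 9 of 14 alternatives. Parp14 stood there at 50.1, 64.9 and 51.1 CPM in WT, 91.1, 107 and 204 in ARE+/- and 81.9, 168 and 177 in ARE-/-. Dtx3l stood at 32.1, 41.8 and 33 CPM in WT, 53.5, 55.2 and 101 in ARE+/- and 45, 92.3 and 97.4 in ARE-/-. For all 3 genes every mutant uterus exceeded every WT uterus, and ARE-/- library 1 was the lowest of the mutants or, for Parp9, the next to lowest. The ARE-/- values of Parp14 and Dtx3l were 1.36 (SE 0.36, edgeR adjusted p = 0.072) and 1.13 (SE 0.33, edgeR adjusted p = 0.0978).

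Of the 8 remaining members 6 were called in the ARE-/- ovary, namely Bst2, Rtp4, Ifi44, Xaf1, Trim30a and Ifi35, and Ifi27l2a and Ifi204 were not. The Trim30a call was lost under 9 of 14 alternatives and that of Ifi35 under 3, and the others were kept under all 14. Bst2 (tetherin) holds budding virions at the cell surface. Its ovary levels were 161, 166 and 151 CPM in WT, 174, 188 and 209.5 in ARE+/- and 268, 235 and 278 in ARE-/-. The genotypes did not overlap and the change was small. Bst2 rose by 0.71 (SE 0.10, edgeR adjusted p = 0.00299) in ARE-/-, and the ARE+/- value of 0.26 (SE 0.10, edgeR adjusted p = 0.239) did not pass. In the uterus Bst2 stood at 126, 88.6 and 98.9 CPM in WT, 125, 124 and 219.5 in ARE+/- and 212, 176 and 179 in ARE-/-. The lower ARE+/- libraries fell within the WT range, and the ARE-/- value was 0.86 (SE 0.25, edgeR adjusted p = 0.096).

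Xaf1, a pro-apoptotic interferon-induced gene, was measured in the ovary at 9.96, 13.1 and 9.9 CPM in WT, 21.3, 19.99 and 19.3 in ARE+/- and 25.8, 30.02 and 25 in ARE-/-. These groups did not overlap, and the rises were 1.29 (SE 0.14, edgeR adjusted p = 0.000767) in ARE-/- and 0.88 (SE 0.14, edgeR adjusted p = 0.0187) in ARE+/-. In the uterus it was 9.67, 21.1 and 9.88 CPM in WT, 30.8, 29.8 and 48.1 in ARE+/- and 36.5, 44.3 and 28.7 in ARE-/-. All mutant uteri lay above WT library 2, the highest WT, and the ARE-/- value was 1.43 (SE 0.34, edgeR adjusted p = 0.0519). Rtp4, described because it was called in the uterus in both genotypes, was measured there at 15.2, 19.4 and 14.3 CPM in WT, 40.7, 43.8 and 85.2 in ARE+/- and 61.3, 49.4 and 54.7 in ARE-/-. Mutant libraries were all above WT, with 1.75 (SE 0.29, edgeR adjusted p = 0.0108) in ARE-/- and 1.79 (SE 0.29, edgeR adjusted p = 0.0212) in ARE+/-. In the ovary Rtp4 rose in ARE-/- by 1.28 (SE 0.22, edgeR adjusted p = 0.00853). Masp1 overlaps Rtp4 on the opposite strand and Gm45338 on the same strand, so any reads of shared parts were counted for each.

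Ifi27l2a, a small membrane protein, had the widest spread of the set. Uterus levels were 19.3, 25.6 and 13.1 CPM in WT, 35, 40.6 and 66 in ARE+/- and 839, 61.9 and 83.5 in ARE-/-. The value of 839 came from ARE-/- library 1, the library with the high adipocyte and erythroid sums, and all other mutant uteri were also above WT. The fold change was 4.08 (SE 0.96, edgeR adjusted p = 0.0533), and without that library 1.91 with an edgeR adjusted p of 0.019. The part of other tissue in the value of 839 was not tested. In the ovary Ifi27l2a measured 16.3, 16.8 and 12.1 CPM in WT, 55.1, 19.1 and 35.1 in ARE+/- and 52.4, 92 and 19.2 in ARE-/-, with 1.85 (SE 0.59, edgeR adjusted p = 0.0951) in ARE-/-. There 1 library of each mutant group lay just above the WT range.

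Ifi204, a nuclear DNA-binding protein of the Ifi200 family, was measured in the ovary at 41.6, 24.3 and 33.2 CPM in WT, 37.2, 41.2 and 33.2 in ARE+/- and 48.3, 38.5 and 35.8 in ARE-/-. The groups overlapped, with 0.31 (SE 0.19, edgeR adjusted p = 0.343) in ARE-/-. In the uterus it stood at 27.5, 27.4 and 32 CPM in WT, 31.2, 36.7 and 69 in ARE+/- and 33.9, 52.1 and 83.1 in ARE-/-. All ARE-/- uteri were above WT, and the test gave 0.96 (SE 0.36, edgeR adjusted p = 0.18). Ifi204 has close copies beside it, which share reads.

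Single libraries stood out for most members at once. Uterus ARE+/- library 3 had the highest level of the 9 uterus libraries for 28 of the 33 members, against 10.6% of all genes tested. Ovary ARE-/- library 3 had the highest level of the 9 ovary libraries for 30 of the 33, against 18.6% of all genes. The median over the 33 members of the log2 ratio to the WT mean was 0.82, 1.02 and 1.83 in the ARE+/- uteri and 0.76, 1.19 and 1.35 in the ARE-/- uteri. The uterus WT libraries stood at -0.12, 0.23 and -0.12. In the ovary the medians were -0.12, 0.21 and -0.26 in WT, 0.86, 0.66 and 0.86 in ARE+/-, and 1.27, 1.59 and 0.95 in ARE-/-. The ARE+/- and ARE-/- uterus medians thus overlapped, and the 3 ovary groups did not.

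**Figure D3:**
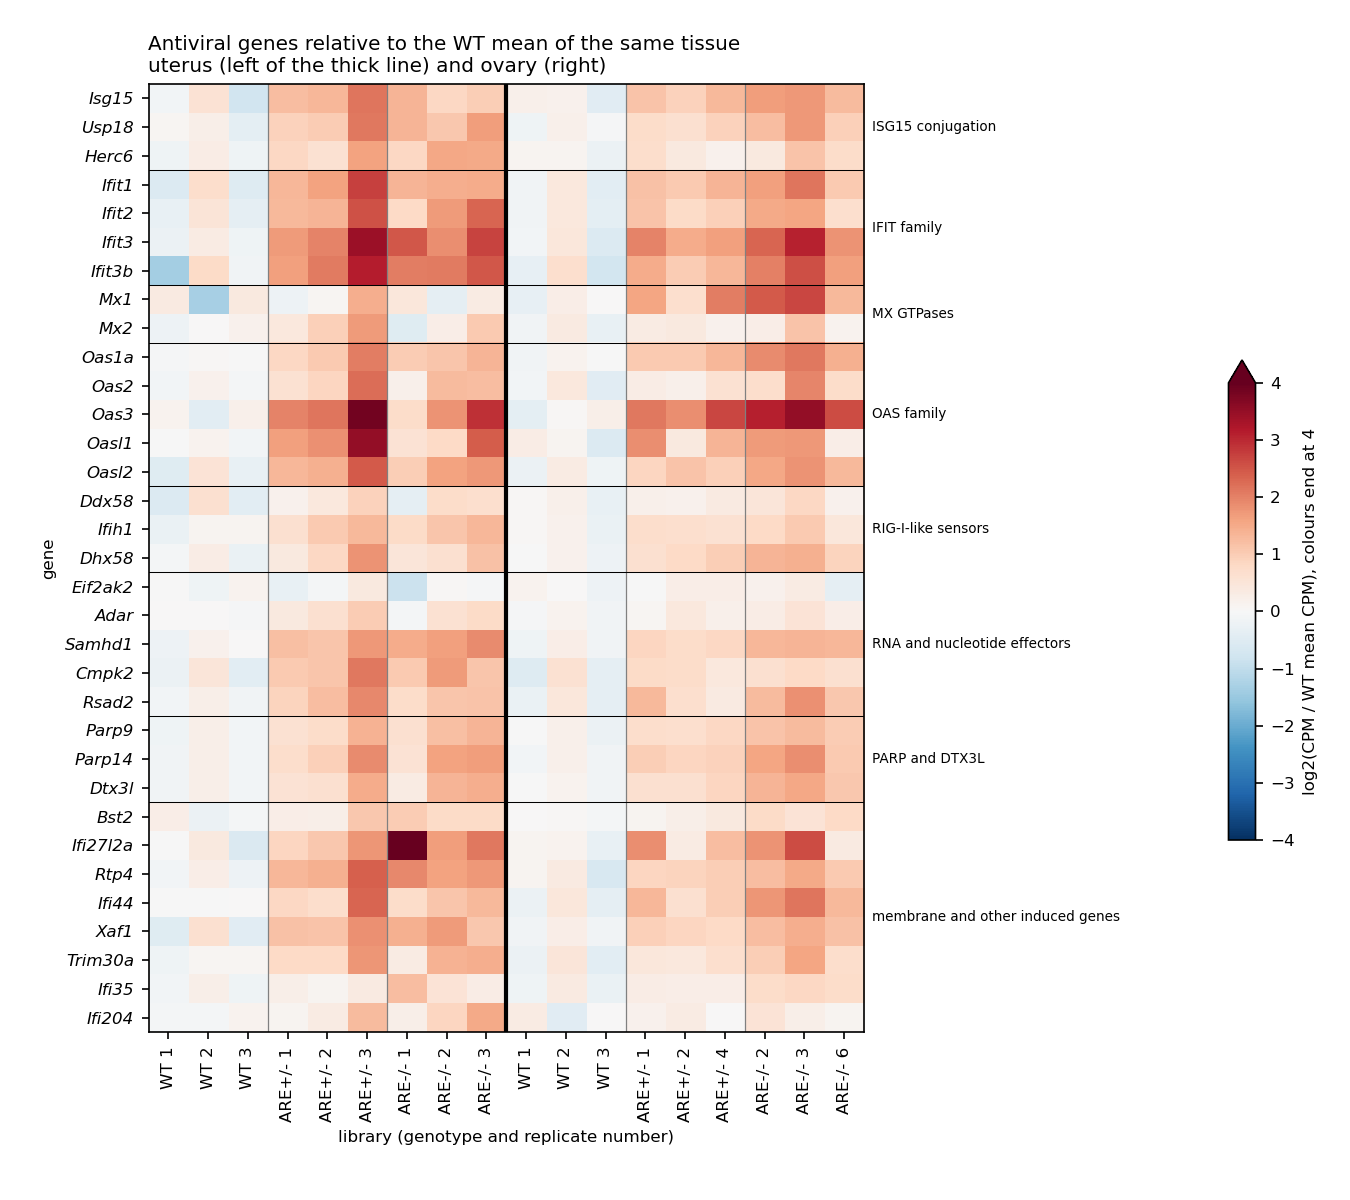
Log2 ratio of CPM to the WT mean of the same tissue (colour, ending at 4) for the 33 antiviral genes (rows, grouped by role) in the 18 libraries (columns). Uterus ARE+/- library 3 and ovary ARE-/- library 3 form the darkest columns, Eif2ak2 stays pale in both tissues, and Ifi27l2a is beyond the scale in uterus ARE-/- library 1.

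The order of the group means is given for each tissue, without a test of the difference between tissues. In the ovary the group means rose from WT through ARE+/- to ARE-/- for 32 of the 33 members, an order that 28.2% of all genes tested had. In the uterus that order held for 11 of the 33, against 23.9% of all genes. For 21 of the 33 the ARE+/- mean was the highest in the uterus, above ARE-/- and WT, against 16.4% of all genes. Without ARE+/- library 3 the rising order held for 25 uterus members and the other for 6, a choice made after the data were seen. When any other single uterus library was left out the rising order held for 6 to 14.

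The direct tests between the mutant genotypes called no member. In the uterus ARE-/- against ARE+/- gave a median log2 fold change of -0.20, from -1.08 to 2.8, with 1 member at an unadjusted p under 0.05, Ifi27l2a. Without ARE+/- library 3 that median was 0.26. Over all genes edgeR called 0.0% there, with 1182 genes at an unadjusted p under 0.05. DESeq2 called no member either, against 0.717% of all genes called higher and 0.0494% lower. In the ovary the median was 0.47, and 0.0491% of all genes were called. There 16 members had an unadjusted p under 0.05, as did 2051 of the 24457 genes tested. DESeq2 called 3 members in that comparison, against 0.581% of all genes called higher. No overlap between groups was seen for 14 of 33 members in the ovary, all ARE-/- libraries being above all ARE+/- libraries, against 6.34% of all genes. In the uterus that count was 0 of 33, against 4.77%. Against WT, all ARE-/- libraries were above all WT libraries for 28 of 33 members in the uterus (12.5% of all genes) and 28 of 33 in the ovary (16.1%). For ARE+/- above WT the counts were 27 of 33 in the uterus (15.6%) and 23 of 33 in the ovary (14.7%).

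A list of 28 genes of the interferon gamma response, among them Cxcl9, Ido1 and Gbp2b, was set beside the members. Of these 27 were called higher in the ARE-/- uterus and 26 in the ARE+/- uterus, with medians of 2.99 and 2.24. In the ovary 27 of 27 tested were called in ARE-/- and 26 in ARE+/-, with medians of 3.14 and 2.11. Cxcl9, a chemokine for T cells, rose by 5.79 (SE 0.38, edgeR adjusted p = 0.000516) in the ARE-/- uterus and by 6.72 (SE 0.36, edgeR adjusted p = 1.77e-05) in the ovary. Both lists came from the same libraries and share the WT controls. All 28 of the gamma list had group means rising from WT through ARE+/- to ARE-/- in the uterus, where 11 of the 33 antiviral genes did. Without ARE+/- library 3, a choice made after the data were seen, that order held for 27 and 25. The gamma list's library medians were 1.94, 1.95 and 2.56 in the ARE+/- uteri and 3.05, 2.88 and 3.06 in the ARE-/- uteri, so these 2 groups did not overlap as the members' medians did.

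**Figure D4:**
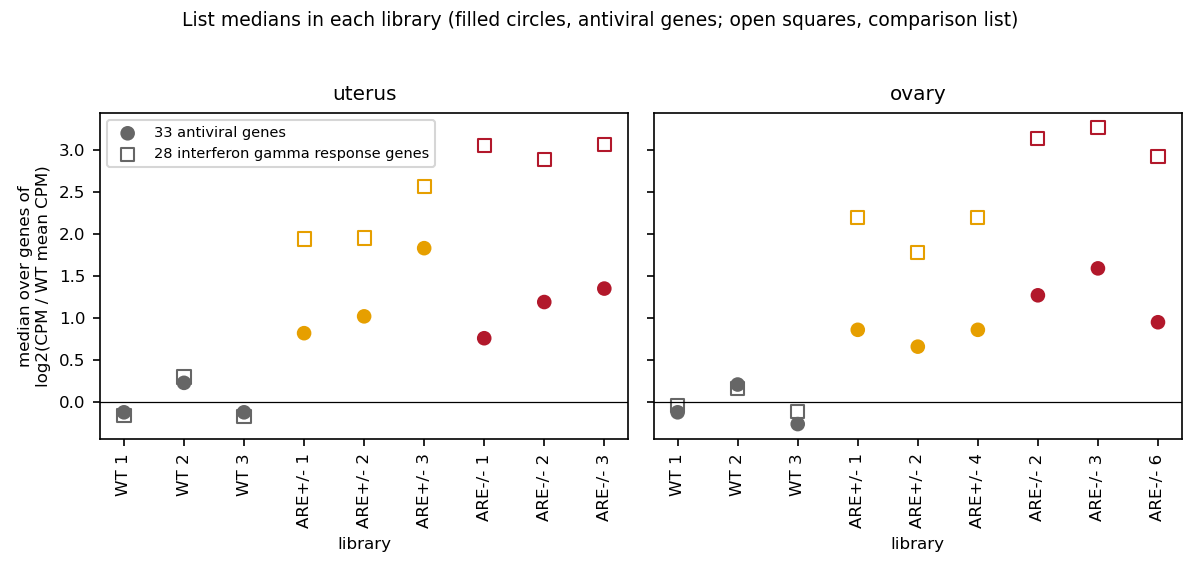
Median over genes of the log2 ratio of CPM to the WT mean (y axis) in each library (x axis), for the 33 antiviral genes (circles) and 28 interferon gamma response genes (squares). The squares rise in steps from WT to ARE+/- to ARE-/- in both tissues, and the circles do so in the ovary, while in the uterus ARE+/- library 3 has the highest circle at 1.83.

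Upstream of the members, the ligands were scarce. Ifng, the targeted gene, was measured in the uterus at 0.107, 0.128 and 0 CPM in WT, 1.1, 0.92 and 1.93 in ARE+/- and 2.66, 3.14 and 1.68 in ARE-/-. All mutant uteri were above WT, with a rise of 4.93 (SE 0.80, edgeR adjusted p = 0.0108) in ARE-/-. Its ovary levels were 0.102, 0 and 0.10 CPM in WT, 0.47, 0.213 and 0.718 in ARE+/- and 1.28, 0.965 and 1.24 in ARE-/-, with a rise of 4.04 (SE 0.80, edgeR adjusted p = 0.0129) in ARE-/-. Without WT library 1 the adjusted p of Ifng was 0.0665 in the ARE-/- uterus and 0.0507 in the ARE-/- ovary. Ifnb1, the interferon beta gene, had 4 counts in all, from 1 of 18 libraries. Of the interferon alpha genes on the list, Ifna1, Ifna2, Ifna4, Ifna5, Ifna11 and Ifna12 had 0 counts, Ifna13 had 4 and Ifnab 2. Bulk RNA at this depth cannot show a transcript made by a few cells for a short time.

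Ifne, the type I interferon that the female reproductive tract makes without infection, was measured in the uterus at 0.214, 0.298 and 0.50 CPM in WT, 0.303, 0.128 and 2.65 in ARE+/- and 0.222, 0.387 and 1.74 in ARE-/-. The highest level, 2.65 CPM, was in ARE+/- library 3, the library with the highest level of 28 members. Its ovary levels were 1.12, 0.662 and 0.953 CPM in WT, 1.15, 0.171 and 1.67 in ARE+/- and 2.16, 1.96 and 0.57 in ARE-/-. The genotypes overlapped in both tissues, and neither ARE-/- comparison passed, at 1.20 (SE 1.12, edgeR adjusted p = 0.604) in the uterus and 0.77 (SE 0.72, edgeR adjusted p = 0.545) in the ovary. The part of Ifne in the high library was not tested. Ifnz was counted in 18 of 18 libraries, 898 counts in all.

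In ARE-/- tissue Stat2 and Irf7 rose in both tissues and Irf9 rose in the ovary, whereas Ifnar1 passed in neither. Ifnar1 stood at 62.1, 71.8 and 67.5 CPM in the WT uterus and 52.9, 74.1 and 81 in ARE-/-, with 0.05 (SE 0.18, edgeR adjusted p = 0.919), and its ovary value was -0.08 (SE 0.10, edgeR adjusted p = 0.656). Ifnar2 rose in the ARE-/- ovary, from 54.7, 58.2 and 51.8 CPM in WT to 77.2, 75.5 and 63.5, by 0.39 (SE 0.10, edgeR adjusted p = 0.0314). That Ifnar2 call was lost under 10 of 14 alternatives, among them the groups compared alone and leaving out any library but ARE-/- library 6, with adjusted p up to 0.127.

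Stat2 and Irf9 are parts of the complex that binds the ISRE. Stat2 was measured in the uterus at 44.1, 57.3 and 43.4 CPM in WT, 85.7, 98.7 and 179 in ARE+/- and 105, 166 and 140.1 in ARE-/-, with 1.51 (SE 0.30, edgeR adjusted p = 0.0235) in ARE-/-. In the ovary it rose from 53, 77.2 and 49.4 CPM in WT to 129, 154 and 124 in ARE-/-, by 1.18 (SE 0.16, edgeR adjusted p = 0.00289). For Stat2 and for Irf9 no ARE-/- library overlapped WT in either tissue. Irf9 stood at 45.4, 51.2 and 41.6 CPM in the WT ovary and 85.9, 103 and 86.2 in ARE-/-, a rise of 0.99 (SE 0.11, edgeR adjusted p = 0.000762), and gave 0.90 (SE 0.22, edgeR adjusted p = 0.0552) in the ARE-/- uterus. Irf7, which amplifies type I interferon production, was measured in the uterus at 18.1, 25.4 and 17.4 CPM in WT, 49.1, 55.1 and 161 in ARE+/- and 78, 55.7 and 99.9 in ARE-/-. Its highest value was again ARE+/- library 3. Irf7 rose by 1.94 (SE 0.44, edgeR adjusted p = 0.0441) in the ARE-/- uterus and by 1.56 (SE 0.22, edgeR adjusted p = 0.00349) in the ARE-/- ovary. The uterus call of Irf7 was lost under 7 of 14 alternatives, with no filter on low counts and without ARE-/- library 1 or 3, ARE+/- library 2 or any WT library (adjusted p up to 0.201). The uterus call of Stat2 was lost without ARE-/- library 3, WT library 1 or WT library 3 (up to 0.138), and the ovary calls of Stat2, Irf7 and Irf9 were kept under all 14.

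Of 13 receptor and JAK-STAT genes 3 were called higher in the ARE-/- uterus, 1 in the ARE+/- uterus, 7 in the ARE-/- ovary and 1 in the ARE+/- ovary. Of 20 genes that sense nucleic acids upstream of interferon the counts were 4, 1, 11 and 5. Zbp1, a sensor of left-handed nucleic acid that can start cell death, had the largest called change of these, 3.15 (SE 0.46, edgeR adjusted p = 0.00704) in the ARE-/- uterus and 4.05 (SE 0.31, edgeR adjusted p = 0.000145) in the ARE-/- ovary. Of 50 other interferon-stimulated genes 49 were tested in the uterus and 48 in the ovary. There 22 were called higher in the ARE-/- uterus, 8 in the ARE+/- uterus, 37 in the ARE-/- ovary and 18 in the ARE+/- ovary. Their medians were 1.16, 1.05, 1.27 and 0.77, beside 1.15, 1.38, 1.31 and 0.82 for the members. Slfn1 had the largest called change on that list, 3.54 (SE 0.43, edgeR adjusted p = 0.0025) in the uterus and 3.65 (SE 0.57, edgeR adjusted p = 0.00513) in the ovary.

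Markers of immune cells moved with the genotype. Of 8 T cell markers 8 were called higher in ARE-/- in each tissue. Their summed level was 14 to 15.4 CPM in the WT uterus, 34.5 to 42.2 in ARE+/- and 106 to 124 in ARE-/-. In the ovary it was 7.0 to 7.64, 21.2 to 35.9 and 40.3 to 96.1 CPM. The highest T cell sum of the ovary was in ARE-/- library 3, and that of the uterus was in ARE-/- library 3, not in the ARE+/- library with the highest member levels. Of 8 macrophage markers 6 were called higher in the ARE-/- uterus and 5 in the ARE-/- ovary. In ARE+/- the counts were 0 and 4. The macrophage sums were 459 to 582 CPM in the WT uterus, 946 to 1300 in ARE+/- and 1190 to 2200 in ARE-/-. The sum of 1300 CPM was in ARE+/- library 3. In the ovary the macrophage sums were 357 to 470 CPM in WT, 637 to 866 in ARE+/- and 654 to 1410 in ARE-/-. No T cell or macrophage marker was at 0 in a whole group. The part of immune cells in the members' levels was not tested.

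Plasmacytoid dendritic cells are the main circulating source of type I interferon. Of 7 markers of these cells none was called higher in any of the 6 genotype comparisons, and 1, Tcf4, was called lower in the ARE-/- ovary. Their median log2 fold change in the ARE-/- uterus was 1.38, with 6 of 7 above 0 and 2 at an unadjusted p under 0.05, and it was 0.11 in the ARE-/- ovary. Their sum was 214 to 333 CPM in the WT uterus, 197 to 280 in ARE+/- and 206 to 508 in ARE-/-. In the ovary it was 177 to 199 CPM in WT, 137 to 162 in ARE+/- and 110 to 144 in ARE-/-. Siglech, a surface lectin of these cells, lay between 0.153 and 2.44 CPM over all 18 libraries, so other genes of the list made up nearly all of each sum. Between WT ovary and WT uterus the 7 ranged from -7.04 to 3.08, so the sums do not measure these cells alone. The part of these cells in the members' levels was not tested. Of 6 B cell markers 1 was called higher in the ARE-/- uterus and 1 in the ARE-/- ovary. Their uterus sum was 15.1 to 25.8 CPM in WT, 60.4 to 90 in ARE+/- and 128 to 138 in ARE-/-. The sum of 90 CPM was in ARE+/- library 3. The B cell sum reached 677 CPM in ovary ARE-/- library 3, the library with the highest level of 30 members, against 11 to 17.6 in the WT ovary, and that library also had the lowest sum of ovary markers among the 6 mutant ovaries, 1080 CPM. The part of B cells and of ovarian cells in its member levels was not tested.

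In WT tissue the members differed widely in level. Per kilobase of transcript, Bst2 was the highest in both tissues, at 132 ± 24.4 CPM per kb (SD, n = 3) in the uterus and 201 ± 9.64 in the ovary. Ifi27l2a followed at 41.8 ± 13.5 and 32.5 ± 5.51, then Ifi35 at 21.2 ± 3.39 and 20 ± 5.03. From Oasl2 at 13.6 ± 5.6 down to Adar at 11.1 ± 0.218 in the uterus, the neighbours in this order did not differ beyond their SD. Oas3 was the lowest in both, at 0.906 ± 0.202 in the uterus and 0.197 ± 0.0417 in the ovary. These are per-length levels of different genes, so copies that share reads are counted in each.

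Between the WT tissues 1 member was called higher in the ovary and 3 lower, against 13.3% and 11.9% of all genes. Cmpk2 was higher in the WT ovary by 1.05 (SE 0.34, edgeR adjusted p = 0.0313), a call lost under 5 of 23 alternatives, namely the groups compared alone, the replicate block and leaving out ovary WT library 2 or uterus WT library 1 or 3 (values down to 0.60, adjusted p up to 0.45). Mx1, Oas3 and Oas1a were lower there, at -2.54 (SE 0.54, edgeR adjusted p = 0.00266), -2.34 (SE 0.56, edgeR adjusted p = 0.00619) and -1.35 (SE 0.26, edgeR adjusted p = 0.00114), and these 3 calls were kept under all 23. Oas3 and Mx1, the lowest members of the WT ovary per kilobase, had the first and the third largest fold changes of the set in the ARE-/- ovary. The next lowest, Oasl1, Ifit3b and Mx2, had 1.38, 2.13 and 0.59. The same WT libraries enter this order and the fold changes, so the 2 are not independent, and a link was not tested. The mean levels of Oas3 and Mx1 in the ARE-/- ovary were 8.11 ± 2.42 (SD, n = 3) and 8.38 ± 3.62 (SD, n = 3) CPM, against 18.1 ± 12.9 (SD, n = 3) and 10.5 ± 2.84 (SD, n = 3) in the ARE-/- uterus. These CPM were scaled within each tissue, and the difference between them was not tested.

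Whether a genotype acted differently in the 2 tissues was tested over all 18 libraries. The labels do not pair the uterus and ovary of a mouse, so no animal term was used here or between the WT tissues. Where both tissues came from the same mice, these p-values ignore that pairing. For ARE-/- no member was called, with a median difference of 0.04 (ovary minus uterus) and 0.169% of all genes called. There 1 member, Mx1, had an unadjusted p under 0.05, as did 3752 of the 26682 genes tested. For ARE+/- no member was called, with a median of -0.54 and 0.00375% of all genes called. There 2 members had an unadjusted p under 0.05, as did 2380 of the 26682 genes. Those 2, Samhd1 at -0.57 (SE 0.24) and Rtp4 at -0.88 (SE 0.37), had the larger effect in the uterus. The larger number of calls in the ovary does not itself show a larger effect there, and no member's difference between the tissues passed. DESeq2 called no member in either of these tests. Over all genes it called 1.29% higher and 1.8% lower for ARE-/-, and 0.322% higher and 0.409% lower for ARE+/-.

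The authors' deposited table gives, per tissue, an adjusted p-value for any difference among the genotypes. In the authors' deposited table the count was 21 members under 0.05 in the uterus and 26 in the ovary, against 7.55% and 12.1% of genes with a value. At the threshold of 0.0001, under which that table assigns genes to clusters, 3 members remained in the uterus, Ifit3, Rtp4 and Samhd1, and 18 in the ovary, against 1.93% and 2.95% of genes. In the authors' deposited table of the uterus all 3 entries were in cluster 1, and in that of the ovary all 18 were. The clusters were deposited for each tissue apart, so the same number does not show a shared pattern.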

How the data were processed

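Total RNA was sequenced with paired ends on an Illumina instrument, per the labels' protocols. Counts per gene were made by the authors with featureCounts 2.0.4 on GENCODE M32, per the file headers. A read with several mapping places or several overlapping genes added to each of them, each mate of a pair counted by itself, and the header shows no strand option, so close copies and overlapping genes share reads. Among counts of 1 to 20, 70.9% (uterus) and 72.1% (ovary) were even. The submitters' processing notes name STAR, DESeq2 and mm10, whereas GENCODE M32 belongs to a later build, so no coordinate of the count tables is printed. The authors also deposited adjusted p-values of a test over genotypes with cluster numbers. No column of per-sample values was left out (0).

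Groups follow the labels for tissue and genotype. The design text speaks of 3 mice per genotype, and where libraries are not separate animals the p-values measure only the spread between libraries. Counts were tested in R 4.3.3 with edgeR 4.0.16 (filterByExpr, TMM, robust quasi-likelihood F-test) over the 9 libraries of a tissue, or all 18 for comparisons between tissues, with Benjamini-Hochberg adjustment over 24277, 24457 or 26682 genes. The fit was tested on simulated data. Alternatives were DESeq2 1.42.0, RLE scaling, no filter on low counts, the groups compared alone, a replicate block and leaving out each library. Values in every library are given for the 12 called members with the smallest adjusted p, for 9 members picked by name and for 9 interferon pathway genes, of which 1 is not reported here, and for at most 3 genes of other lists. The members and lists were chosen with earlier results of these data known.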

Additional observations from a re-analysis of the deposited data

How the results depend on the processing

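The counts of antiviral genes called depended on the test and on single libraries. DESeq2 called 20 in the ARE-/- uterus (6 by edgeR), 22 in the ARE+/- uterus (3), 19 in the ARE+/- ovary (9) and 3 in the ovary between the mutant genotypes (0). Over all genes it called 7.41%, 4.39% and 4.05% higher in the first 3 of these, against 3.36%, 1.08% and 1.35% by edgeR. For the ARE+/- uterus the count was 11 with no filter on low counts (0.988% of all genes called higher) and 6 with the groups compared alone (3.18%). For the ARE+/- ovary it was 14 with the groups compared alone (2.11%), and for the WT tissues 9 instead of 4 (16.9% of all genes called higher and 15.2% lower). Leaving out 1 library at a time gave 1 to 13 in the ARE-/- uterus, 0 to 9 in the ARE+/- uterus, 15 to 27 in the ARE-/- ovary (24), 0 to 16 in the ARE+/- ovary and 3 to 10 for the WT tissues. In those fits of the WT tissues 9.54% to 16.1% of all genes were called higher and 7.19% to 14.7% lower. The ARE-/- uterus count was 1 without WT 1 or WT 3, 3 without ARE+/- 2 or ARE-/- 3, 10 without ARE-/- 1 and 13 without ARE+/- 3. The ARE+/- uterus count was 0 without WT 1 or WT 3, 8 without WT 2 and 9 without ARE-/- 1. The ARE-/- ovary count was 15 without WT 1. The ARE+/- ovary count was 0 without WT 1, 1 without WT 3 or ARE+/- 1, 2 without ARE+/- 4, 5 without ARE-/- 2 and 16 without ARE-/- 6. Of the 24 calls in the ARE-/- ovary 15 held under all 14 alternatives, and of the 9 in the ARE+/- ovary 0 did. Of the 6 in the ARE-/- uterus 1, Samhd1, did, and of the 3 in the ARE+/- uterus 0. With 1 library left out, the uterus members with means in rising order numbered 6 to 25 and those with ARE+/- highest 6 to 25. In the ovary these counts were 27 to 33 and 0 to 5. With the replicate number as a block, 8 members were called in the ARE+/- uterus (1.19% of all genes called higher) and 0 in the ARE+/- ovary (0.241%). Deviations of same-numbered libraries correlated at -0.035 to 0.343 (uterus) and -0.16 to 0.014 (ovary), so the numbers were treated as names. They were 0.101 to 0.343 between the ARE+/- and ARE-/- uterus, where 0 members were called with and without the block. The direction turned for 8 single values with 1 library left out. Mx1 ranged from -0.20 (without WT 2) to 0.42 in the ARE-/- uterus and from -0.058 (without ARE+/- 3) to 0.91 in the ARE+/- uterus. Mx2 ranged from -0.073 (without ARE-/- 3) to 0.71 in the ARE-/- uterus. Eif2ak2 ranged from -0.18 (without ARE+/- 3, and -0.034 without WT 2) to 0.18 in the ARE+/- uterus and from -0.089 (without ARE-/- 3, and -0.035 without WT 3) to 0.23 in the ARE-/- ovary. Ifi204 ranged from -0.024 (without WT 2) to 0.35 in the ARE+/- ovary. The cause of these changes was not tested.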
